A study of Mus musculus with 137 samples.

Results

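The splicing factors described here are the 51 genes of the assay whose symbols begin with Srsf and a number, Snrp, Sf3a or Sf3b and a number, or Hnrnp, out of 21450 genes with a probe. They were chosen by symbol alone, and each is represented by its probe with the highest total count. There are 11 Srsf, 11 Snrp, 9 Sf3 and 20 Hnrnp members, and all 51 passed the filter on low counts. Expression was measured with TempO-Seq, in which pairs of short probes are joined on a transcript and counted, in crypt and villus tissue dissected from fixed, paraffin-embedded duodenum of female, wildtype B6C3F1 mice. The mice drank water with 0 (untreated), 0.1, 1.4, 5, 20, 60 or 180 ppm hexavalent chromium (Cr(VI)), given as sodium dichromate dihydrate, for 7 or 90 days, and tissue was taken on day 8 or day 91. The 71 crypt and 66 villus libraries came from 71 mice and fell into 28 groups of 4 to 6 libraries. Villus groups had 4 libraries at 5, 20 and 180 ppm on day 8 and in untreated mice on day 91, the crypt group at 0.1 ppm on day 8 had 6, and all other groups had 5. Each dose was compared with the untreated group of the same compartment and day, so the dose comparisons within a compartment and day share their control libraries.

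Splicing removes introns from pre-mRNA and is carried out by the spliceosome, which is built from small nuclear ribonucleoprotein particles (snRNPs). The Snrp genes encode proteins of these particles, among them the ring of Sm proteins that encircles the small nuclear RNAs. The Sf3 genes encode the SF3a and SF3b complexes, parts of the U2 particle that help it bind the intron at the branch point. The Srsf genes encode SR proteins, which bind exons and mostly favour their inclusion, and the Hnrnp genes encode hnRNP proteins, which coat nascent transcripts and often oppose inclusion. Transcripts of many of these genes are themselves regulated by splicing, and their levels are commonly higher in dividing than in resting cells.

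Promoter sequence is shown for 3 members that differ in their response below: Snrpb2 and Hnrnpab, which rose at day 91 in crypt, and Srsf5, which fell at 60 ppm. Each stretch is 200 bases long, ends 50 bases before the RefSeq start on build GRCm38.p6, and reads 5′ to 3′ on the strand of the gene. Capitals mark the words searched on both strands: CCAAT for the CCAAT box, GGGCGG for the GC box, CACGTG for the E-box, CCGGAAG for a word that ETS factors bind, and TATAAA for the TATA box. Snrpb2 lies on the plus strand at chr2:143062819-143063018, Hnrnpab on the minus strand at chr11:51606932-51607131 and Srsf5 on the plus strand at chr12:80945249-80945448.
Snrpb2: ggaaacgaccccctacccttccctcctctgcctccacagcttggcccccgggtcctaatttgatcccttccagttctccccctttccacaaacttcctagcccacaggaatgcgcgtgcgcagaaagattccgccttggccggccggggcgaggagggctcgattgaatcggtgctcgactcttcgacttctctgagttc
Hnrnpab: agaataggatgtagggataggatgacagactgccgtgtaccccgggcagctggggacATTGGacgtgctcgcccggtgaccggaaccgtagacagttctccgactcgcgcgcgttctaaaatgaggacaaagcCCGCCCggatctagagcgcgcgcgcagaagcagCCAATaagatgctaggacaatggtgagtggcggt
Srsf5: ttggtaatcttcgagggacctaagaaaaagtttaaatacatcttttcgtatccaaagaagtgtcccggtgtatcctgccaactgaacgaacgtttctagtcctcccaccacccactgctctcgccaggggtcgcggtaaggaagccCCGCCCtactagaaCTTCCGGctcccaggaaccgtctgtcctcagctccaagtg
Windows of 250 bases were found for 45 of the 51 members. CCGGAAG occurred in 33.3% of the member windows and in 7.1% of all 27025 RefSeq windows of that length, and GGGCGG in 68.9% and 32.9%. CCAAT was found in 44.4% of member windows against 34.5% of all, TATAAA in 11.1% against 13.0%, and CACGTG in 6.7% against 6.0%. Member windows were also richer in G and C, with a median of 60.8% against 52.0%. The searches covered all 250 bases, and Snrpb2 holds GGGCGG and CCGGAAG only where they lie in, or reach into, the 50 bases not printed. A word match is a description of the letters only.

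Library totals ranged from 1463938 to 7199801 counts, with a median of 3592983. Depth was uneven between groups. The untreated villus libraries of day 91 held a median of 2172694 counts and 13987 detected probes, against 4000110 counts and 18210 probes at 180 ppm. In untreated libraries of day 8, the summed level of 7 Paneth and stem cell markers, in CPM (counts scaled by library size), set 2 libraries apart from their labels. The crypt library of mouse 49 held 2359 CPM where the other untreated crypts held 8728 to 31820 CPM, and the villus library of mouse 48 held 20174 CPM where the other untreated villi held 2380 to 9180 CPM. Counts of called members on day 8 are therefore given with and without these 2 doubted libraries.

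The families differed in level. By mean CPM over all libraries, the median Hnrnp member stood at 236 CPM, the median Srsf member at 116 CPM, the median Sf3 member at 68.1 CPM and the median Snrp member at 22.7 CPM. These levels are not corrected for how well each probe binds. Hnrnpul2, an hnRNP U-like protein, was the most abundant at 906 CPM, followed within their families by Sf3b1 (281 CPM), Srsf6 (270 CPM) and Snrpf (150 CPM). Srsf12, Snrpa and Snrpn were under 10 CPM. On simulated counts the test kept its error rate for probes of 30 CPM or more and gave too many small p-values below that, so a second form of the test (the legacy quasi-likelihood fit) was run, which held its rate there but also recovered fewer true changes. Of the 14 members under 30 CPM, those it did not pass are named beside each count. The shares over all probes given below come from the first form and carry the same fault. At 180 ppm the legacy fit called 8, 15, 6 and 26 members higher in crypt on days 8 and 91 and villus on days 8 and 91, against 0.474%, 2.16%, 1.88% and 9.44% of all probes.

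In crypt at 180 ppm on day 8, 12 of 51 members were higher than in untreated crypt and none was lower, by edgeR's quasi-likelihood test at a Benjamini-Hochberg adjusted p below 0.1. Of all 26365 probes tested, 1.05% were higher and 3.08% lower, and of those with a mean of 10 CPM or more, 2.28% were higher. The median log2 fold change was 0.39 over the members and -0.04 over all probes. The 12 comprised 6 Hnrnp, 3 Snrp, 2 Srsf and 1 Sf3 members. Without the untreated crypt library of mouse 49, only 3 of the 12 passed, and without both doubted libraries 3 did, against 0.445% of all probes.

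Hnrnpab, an hnRNP that binds AU-rich and single-stranded sequences, stood at 261, 286, 306, 351 and 406 CPM in untreated crypt and at 476, 487, 625, 695 and 699 CPM at 180 ppm. The groups did not overlap, and the log2 fold change was 0.89 (SE 0.20, adjusted p = 0.00217). Hnrnpd (AUF1), which binds AU-rich elements of unstable mRNAs, was between 39.6 and 85.0 CPM in untreated crypt and between 107 and 145 CPM at 180 ppm, again without overlap, with a log2 fold change of 1.04 (SE 0.29, adjusted p = 0.0206). A further Hnrnpd probe gave 0.32 (adjusted p = 0.698). Snrpg, a protein of the Sm ring, rose from 88.4, 146, 149, 171 and 177 CPM to 209, 284, 305, 328 and 341 CPM, with a log2 fold change of 1.0 (SE 0.28, adjusted p = 0.0199). Snrpf, another protein of that ring, had a log2 fold change of 0.89 (SE 0.29, adjusted p = 0.077) with overlapping groups.

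The remaining named members of this comparison lay in the Sf3 and Srsf families. Sf3a3, a subunit of SF3a, had a log2 fold change of 0.80 (SE 0.22, adjusted p = 0.0229), Srsf9 of 0.77 (SE 0.24, adjusted p = 0.0518) and Srsf1, the founding SR protein, of 0.68 (SE 0.21, adjusted p = 0.0595). Without the untreated crypt library of mouse 49 and the untreated villus library of mouse 48, the adjusted p was 0.101 for Sf3a3, 0.164 for Srsf9, 0.153 for Srsf1 and 0.245 for Snrpf, so none of these 4 passed. Snrpa1, a U2 particle protein with a mean of 18.4 CPM, was among the 12 but not in the legacy fit (adjusted p = 0.252).

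In crypt at 180 ppm on day 91, 19 of 51 members were higher and none lower, against 3.8% of all probes higher and 2.69% lower, and 9.14% higher among those with 10 CPM or more. The median log2 fold change was 0.60 over the members and 0.00 over all probes, and the 19 comprised 7 Hnrnp, 6 Snrp, 3 Srsf and 3 Sf3 members. With crypt on day 91 fitted alone 33 were higher, against 13.5% of all probes in that fit, and without library 2 of every exposed group 12 were, against 2.38%. Hnrnpab was at 245, 360, 410, 466 and 516 CPM in untreated crypt and at 647, 687, 717, 817 and 931 CPM at 180 ppm, with a log2 fold change of 0.93 (SE 0.20, adjusted p = 0.00113). Snrpb2, a U2 particle protein, rose from 8.46, 17.0, 17.1, 18.9 and 25.0 CPM to 25.6, 36.1, 64.0, 71.3 and 71.5 CPM. Its groups did not overlap and its log2 fold change of 1.61 (SE 0.39, adjusted p = 0.00357) was about 3.06-fold. The legacy fit also passed it (adjusted p = 0.0586), but after thinning every library to the smallest total its log2 fold change was 0.96 (adjusted p = 0.26).

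Sf3b6, the SF3b subunit that contacts the branch point, was between 42.0 and 74.7 CPM in untreated crypt and at 69.6, 124, 140, 161 and 165 CPM at 180 ppm, so that 1 exposed library overlapped the untreated ones (log2 fold change 1.12, SE 0.26, adjusted p = 0.0024). Snrpg had a log2 fold change of 1.01 (SE 0.27, adjusted p = 0.0138), Sf3b4 of 0.85 (SE 0.24, adjusted p = 0.0169) and Srsf1 of 0.80 (SE 0.21, adjusted p = 0.0119). Srsf6 stood at 237 to 280 CPM in untreated crypt and at 331 to 501 CPM at 180 ppm (log2 fold change 0.76, SE 0.22, adjusted p = 0.0212), and Hnrnpf at 193 to 343 CPM and 399 to 584 CPM (log2 fold change 0.68, SE 0.19, adjusted p = 0.0143). Neither of these 2 members overlapped between groups, but 2 further Hnrnpf probes gave log2 fold changes of 0.30 and 0.21 (adjusted p = 0.688 and 0.793). A further Srsf6 probe with a mean of 68.3 CPM gave 0.52 (edgeR adjusted p = 0.365). Of the 3 called members under 30 CPM, Snrpa1 and Snrpd1 did not pass the legacy fit.

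At 60 ppm on day 91, 22 members of crypt were higher and 2 were lower, with 9.78% of all probes higher and 4.73% lower. Among probes with 10 CPM or more, 23.5% were higher and 8.99% lower. The median log2 fold change was 0.56 over the members and 0.06 over all probes. With DESeq2's size factors in place of TMM scaling these medians were 0.27 and -0.18, and 6.02% of all probes were higher and 8.94% lower. Sf3b1, the largest SF3b subunit, was at 156, 177, 231, 267 and 316 CPM in untreated crypt and at 413, 459, 486, 651 and 652 CPM at 60 ppm (log2 fold change 1.22, SE 0.22, adjusted p = 2.56e-05). At 180 ppm its log2 fold change was 0.57 (SE 0.22, adjusted p = 0.141). The 2 lower members, described after their values were seen, were SR proteins. Srsf2 was at 33.1, 33.1, 36.3, 55.2 and 71.3 CPM in untreated crypt and at 14.3, 17.7, 23.8, 24.0 and 29.9 CPM at 60 ppm (log2 fold change -1.06, SE 0.31, adjusted p = 0.0105), and at 180 ppm its log2 fold change was -0.10 (adjusted p = 0.92). Srsf5 had a log2 fold change of -0.76 at 60 ppm (SE 0.23, adjusted p = 0.0151) and of -0.12 at 180 ppm (adjusted p = 0.864). Whether 60 and 180 ppm differ was not tested. At 60 ppm on day 8, 2 members were higher, Hnrnpab and Hnrnpd, and none lower, against 0.755% and 1.38% of all probes. Without the 2 doubted libraries 1 was higher, against 0.308% of all probes. DESeq2 called 10 (0.951% of all probes higher and 1.73% lower), and summed probes 8 (1.21% and 1.43%). The fit of crypt on day 8 alone called 5 (1.4% and 1.6%). Leaving out libraries gave 1 (without untreated mouse 49) to 10 (without untreated mouse 50).

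**Figure D1:**
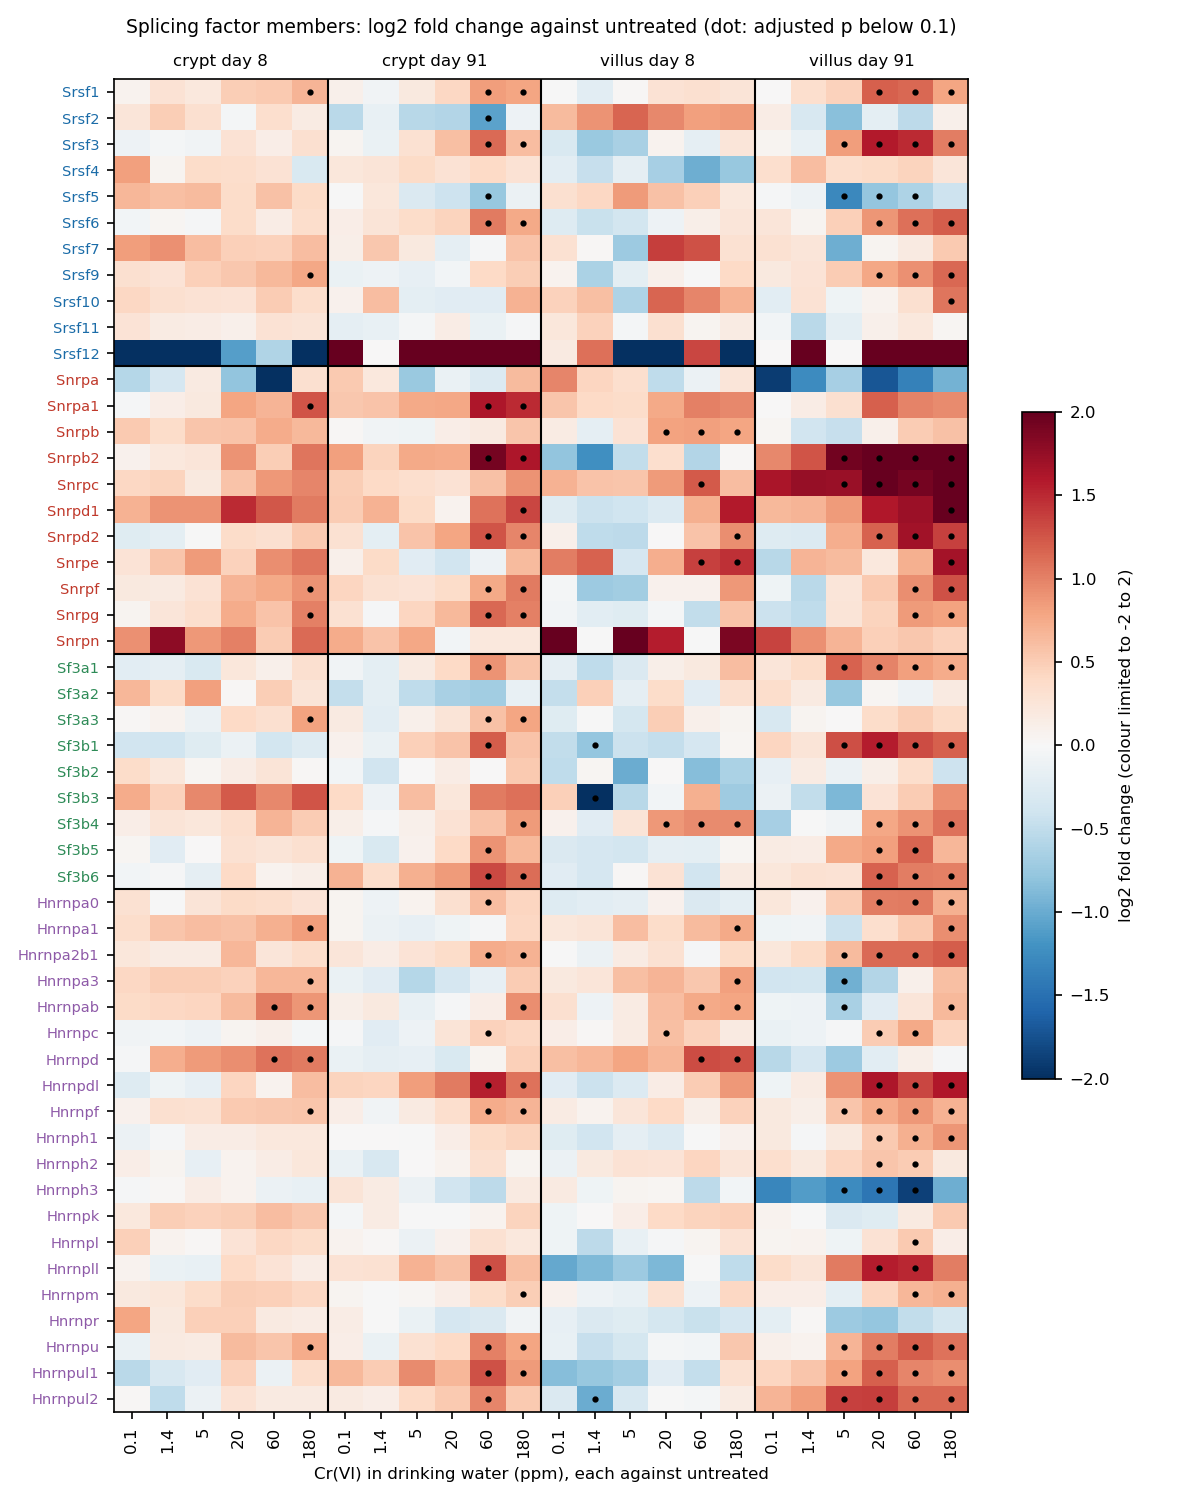
Log2 fold change of each of the 51 members (rows, coloured by family) at each dose against untreated (columns, ppm Cr(VI), in 4 blocks of compartment and day), with a dot where the adjusted p was below 0.1. On day 91 dots gather at 60 and 180 ppm in crypt and from 5 ppm in villus, where 27 members were higher at 180 ppm. On day 8 most dots of crypt stand at 180 ppm. The dark cells of Srsf12 come from groups at or near 0 counts, and none was called.

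In villus at 180 ppm on day 8, 8 of 51 members were higher and none lower, against 2.5% of all probes higher and 3.46% lower, and 5.58% higher among those with 10 CPM or more. The median log2 fold change was 0.31 over the members and -0.10 over all probes. Without the untreated villus library of mouse 48 and the untreated crypt library of mouse 49, 15 members were higher, against 3.59% of all probes in that fit, and when villus on day 8 was fitted alone, 2 were, against 1.5%. By edgeR, no Srsf member was called on its first probe, while a further Srsf1 probe with a mean of 133 CPM had a log2 fold change of 0.95 (adjusted p = 0.00712), against 0.26 (adjusted p = 0.586) for the first. Hnrnpd was at 9.79, 36.9, 43.1, 48.3 and 61.2 CPM in untreated villus and at 89.8, 91.1, 106 and 106 CPM at 180 ppm, a separation of the groups with a log2 fold change of 1.27 (SE 0.32, adjusted p = 0.00566). A further Hnrnpd probe gave 0.69 (adjusted p = 0.291 by edgeR). Hnrnpab was at 165 to 290 CPM and 314 to 577 CPM (log2 fold change 0.79, SE 0.22, adjusted p = 0.0149), also without overlap.

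Sf3b4 was at 25.8, 39.6, 42.1, 46.6 and 50.6 CPM in untreated villus and at 65.5, 75.9, 84.6 and 88.9 CPM at 180 ppm on day 8 (log2 fold change 0.94, SE 0.27, adjusted p = 0.0207). Of the Sm ring proteins, Snrpb had a log2 fold change of 0.78 (SE 0.26, adjusted p = 0.0641) and Snrpe of 1.47 (SE 0.48, adjusted p = 0.0589), both with overlapping groups. Snrpe has a mean of 19.7 CPM and did not pass the legacy fit (adjusted p = 0.11). At 60 ppm, 6 members were higher and none lower, against 2.94% and 3.63% of all probes. Without the 2 doubted libraries 11 were higher (3.3% of all probes), and 3 were when villus on day 8 was fitted alone (1.89%) or without untreated mouse 47 (2.05%). The villus library of mouse 447 at 60 ppm held 8023 CPM of the Paneth and stem cell markers, where the others of its group held 196 to 2732 CPM. Without library 2 of every exposed group, which leaves out mouse 447, 11 were called, with no share of all probes given. Snrpc and Snrpe, both among the 6, did not pass the legacy fit.

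Villus on day 91 held the most calls. At 180 ppm, 27 of 51 members were higher and none lower, against 8.9% of all probes higher and 4.95% lower, and 20.2% higher among those with 10 CPM or more. The 27 comprised 11 Hnrnp, 7 Snrp, 5 Srsf and 4 Sf3 members. The median log2 fold change was 0.79 over the members and 0.11 over all probes. With DESeq2's size factors in place of TMM scaling, these medians were 0.50 and 0.00. In that fit 18 members were higher and 2 lower, against 5.35% and 7.77% of all probes, so part of the count depends on the scaling. At 60 ppm, 27 were higher and 2 lower (10.2% of all probes higher and 5.25% lower, and 23.6% and 9.12% of those with 10 CPM or more). With DESeq2's size factors 15 were higher and 4 lower, against 5.42% and 9.65% of all probes.

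Hnrnpul2 was at 328, 411, 492 and 641 CPM in untreated villus on day 91 and at 780, 869, 1031, 1168 and 1357 CPM at 180 ppm, without overlap (log2 fold change 1.15, SE 0.22, adjusted p = 2.53e-05). Srsf6 was at 93.4, 132, 136 and 226 CPM and at 316, 320, 327, 336 and 407 CPM (log2 fold change 1.21, SE 0.24, adjusted p = 0.000101). Sf3b1 was at 113, 156, 188 and 195 CPM and at 214, 328, 370, 467 and 505 CPM (log2 fold change 1.20, SE 0.25, adjusted p = 0.000139). All 3 separated the groups, as did Hnrnpa2b1 (log2 fold change 1.21, SE 0.24, adjusted p = 0.00011) and Srsf9, which had at most 88.7 CPM in untreated villus and up to 168 CPM at 180 ppm (log2 fold change 1.14, SE 0.27, adjusted p = 0.00106).

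Among the particle proteins, Snrpc, which belongs to the U1 particle, was at 0, 6.50, 8.05 and 10.02 CPM in untreated villus on day 91 and at 9.31, 25.4, 33.5, 35.3 and 50.2 CPM at 180 ppm. Its log2 fold change was 2.29 (SE 0.55, adjusted p = 0.00145, and 0.00216 in the legacy fit). Snrpd2 was at 13.8, 33.4, 40.6 and 76.5 CPM and at 56.1, 89.3, 99.0, 116 and 170 CPM (log2 fold change 1.36, SE 0.36, adjusted p = 0.00441). Sf3b4 had a log2 fold change of 1.08 (SE 0.27, adjusted p = 0.00282). All 3 had overlapping groups. The 4 called members under 30 CPM in this comparison all passed the legacy fit as well.

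At the lower doses of 0.1 to 20 ppm, calls in the fit of all 28 groups lay in villus, and a difference between compartments was not tested there. At 5 ppm on day 91, 10 members were higher and 4 lower, against 7.57% and 3.32% of all probes and 14.6% and 7.04% of those with 10 CPM or more. The median log2 fold change at 5 ppm was 0.26 over the members and 0.43 over all probes, with 21 of the 51 members above the latter, and was 0.091 and 0.27 with DESeq2's size factors. Of the calls at 5 ppm, Hnrnph3 did not pass the legacy fit. At 20 ppm 23 were higher and 2 lower, against 10.2% and 4.49% of all probes and 23.3% and 8.36% of those with 10 CPM or more. On day 8, 3 were lower at 1.4 ppm (1% of all probes lower) and 3 were higher at 20 ppm (1.11% higher). Without the 2 doubted libraries 1 was lower and 4 were higher on day 8 (0.156% of all probes higher and 0.274% lower at 1.4 ppm, and 1.09% and 1.28% at 20 ppm). The legacy fit called 2 in all (0.148% and 0.683% at 1.4 ppm, and 0.501% and 0.838% at 20 ppm), and the fit of villus on day 8 alone none. DESeq2 called 19 (1.54% and 2.13% at 1.4 ppm, 0.86% and 1.71% at 5 ppm, and 1.67% and 3.03% at 20 ppm). Leaving out libraries gave 1 (without library 4 of every exposed group) to 16 (without untreated mouse 50). Hnrnpul2 was one of those lower at 1.4 ppm, with a mean of 432 CPM (SD 60.2, n = 5) against 858 CPM (SD 180, n = 5) in untreated villus (edgeR adjusted p = 0.00604, and 0.0205 without the 2 libraries). In crypt no member was called at 0.1 to 20 ppm on either day in the fit of all groups, where at most 0.372% of probes were higher (20 ppm, day 91) and 0.212% lower (20 ppm, day 8). When crypt on day 91 was fitted alone, there were 11 calls, 10 higher and 1 lower. In that fit 3.32% of all probes were higher and 1.96% lower at 5 ppm, and 7.54% and 5.16% at 20 ppm. DESeq2 made 1 call on each day, with at most 0.45% of probes higher and 0.734% lower (20 ppm, day 91). Summing probes per gene gave 1 on day 8, with at most 0.0785% of summed probes higher and 0.314% lower (20 ppm).

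Srsf5 and Hnrnph3 were the 2 members lower at 20 and at 60 ppm in villus on day 91, and are described after their values were seen. Srsf5 averaged 154 CPM (SD 18.2, n = 4) in untreated villus, 62.8 CPM (SD 12.3, n = 5) at 5 ppm, 88.7 CPM (SD 42.4, n = 5) at 20 ppm, 101 CPM (SD 9.93, n = 5) at 60 ppm and 116 CPM (SD 27.7, n = 5) at 180 ppm. It was lower at 5, 20 and 60 ppm (adjusted p = 0.000299, 0.0199 and 0.0847 by edgeR) and did not pass at 180 ppm (0.327). Hnrnph3, an hnRNP of the H family, was at 20.9, 23.7, 42.1 and 59.8 CPM in untreated villus and at 6.50, 9.41, 9.73, 11.3 and 13.1 CPM at 60 ppm (log2 fold change -1.86, SE 0.42, adjusted p = 0.000648, and 0.00687 in the legacy fit). At 180 ppm its log2 fold change was -0.97 (adjusted p = 0.111).

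**Figure D2:**
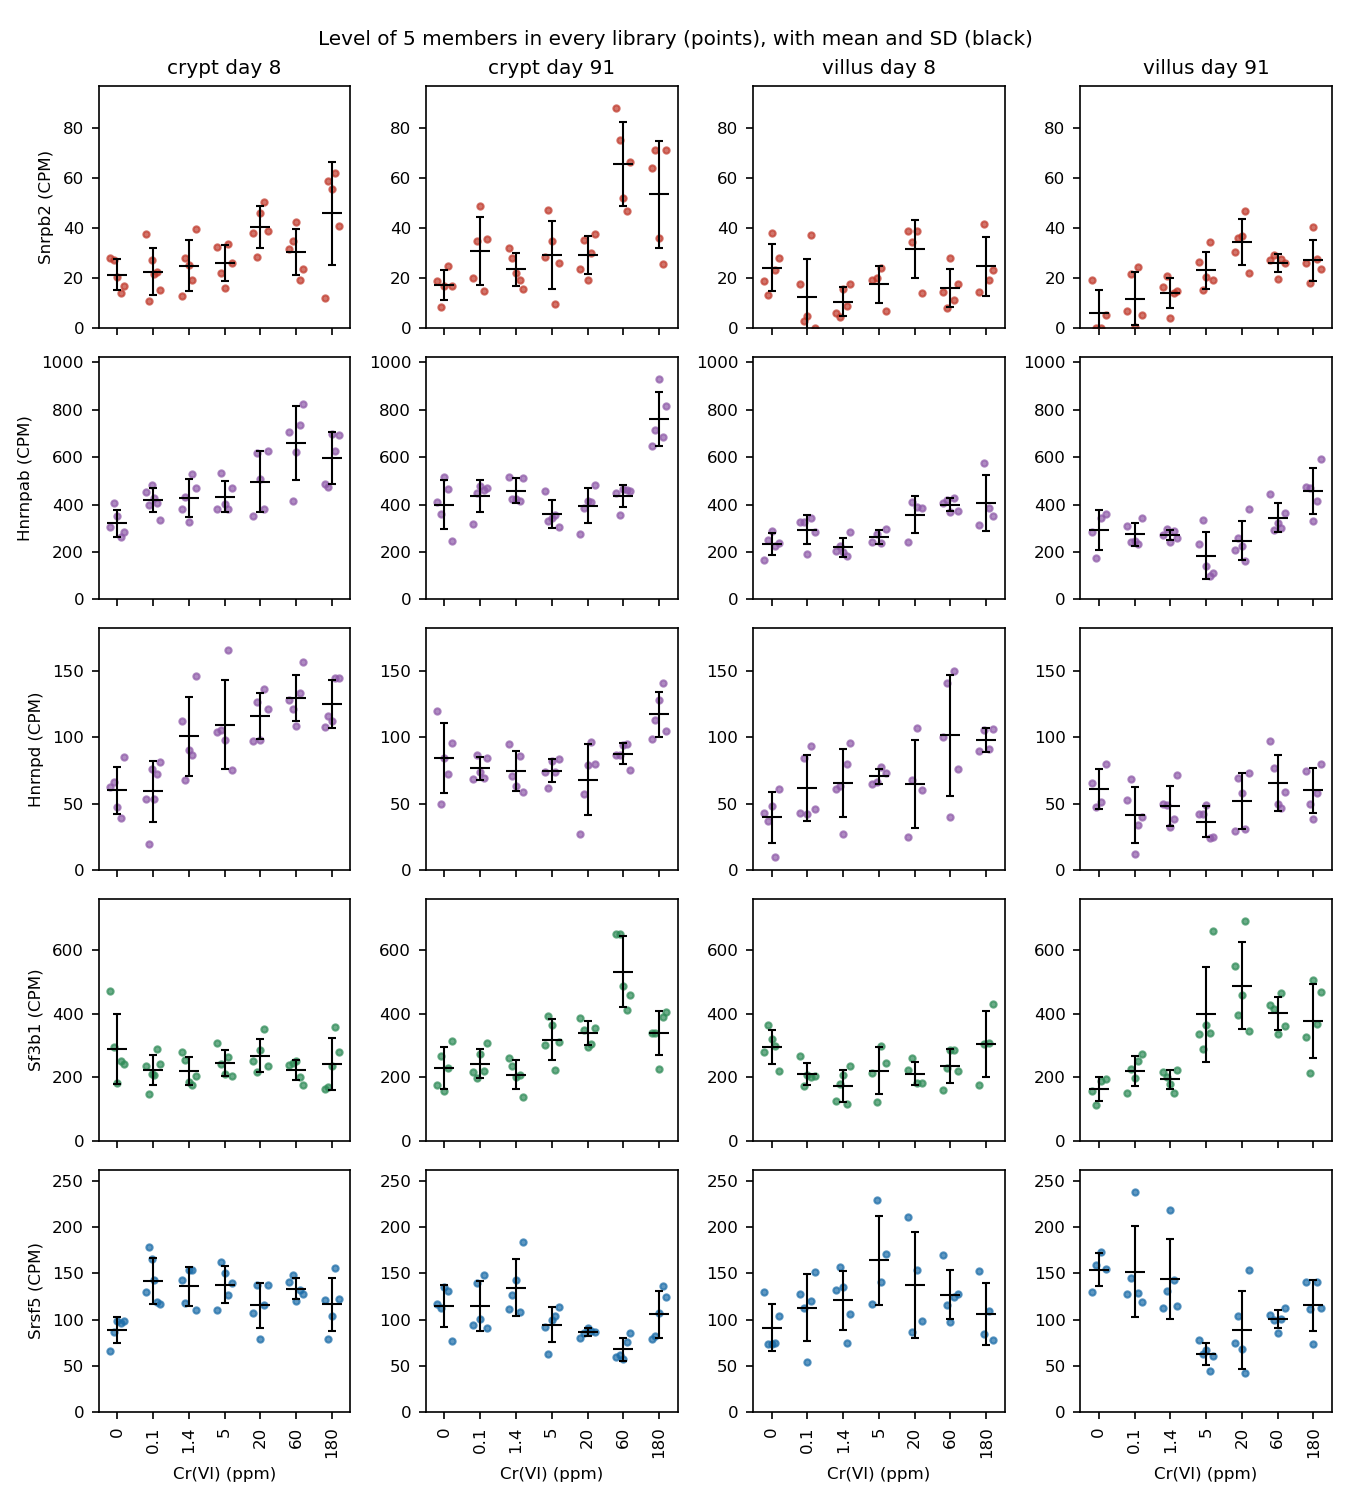
Level (CPM) of Snrpb2, Hnrnpab, Hnrnpd, Sf3b1 and Srsf5 (rows) in every library by Cr(VI) dose (ppm), in the 4 sets of compartment and day (columns); points are libraries and black bars the mean and SD. Hnrnpab at 180 ppm lies above all untreated libraries in 3 of the 4 sets, and Srsf5 in villus on day 91 falls from a mean of 154 CPM to 62.8 CPM at 5 ppm.

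Over the 24 comparisons of a dose with untreated, which share controls in sets of 6, 41 of the 51 members passed at least once, as did 35.7% of all probes and 64.3% of those with 10 CPM or more. Of the 41 members, 33 passed only as higher and 4 only as lower (Srsf2, Srsf5, Sf3b3 and Hnrnph3). This compares with 18.6% and 14.1% of all probes, and 35.5% and 22% of those with 10 CPM or more. The other 4 passed in both directions, against 3.03% of all probes and 6.81% of those with 10 CPM or more. Hnrnpab and Hnrnpa3 were lower at 5 ppm in villus on day 91 and higher elsewhere, and Sf3b1 and Hnrnpul2 were lower at 1.4 ppm in villus on day 8 and higher on day 91. When the 2 doubted libraries were left out, 40 members passed at least once (35% of all probes). Sf3b3 then passed in no dose comparison (adjusted p = 0.192 at 1.4 ppm in villus on day 8, its only call), and Sf3b1 only as higher (0.188 by edgeR for the lower one, which the legacy fit did not pass either). At 180 ppm, Hnrnpab was higher in all 4 sets, against 0.262% of all probes and 0.692% of those with 10 CPM or more, and 8 members were in 3 of the 4, against 0.838% and 2.13% (Srsf1, Snrpd2, Snrpf, Snrpg, Sf3b4, Hnrnpa1, Hnrnpf and Hnrnpu). Without the 2 doubted libraries Hnrnpab was again higher in all 4, and 7 were in 3 of the 4 (0.152% and 1.16% of all probes), with Srsf1, Hnrnpa1 and Hnrnpf no longer among them and Hnrnpdl and Snrpd1 added. The log2 fold change was above 0 in all 4 sets for 35 members and below 0 in all 4 for none, against 12.2% and 13.3% of all probes, or 23.5% and 19.3% of those with 10 CPM or more.

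The 10 members that passed in no dose comparison were Srsf4, Srsf7, Srsf11, Srsf12, Snrpa, Snrpn, Sf3a2, Sf3b2, Hnrnpk and Hnrnpr, and 7 of them had a mean under 30 CPM. Srsf7 and Hnrnpr each passed at least once without the 2 doubted libraries, while Hnrnph2, Hnrnpl and Sf3b3 did not. Of the 3 abundant ones, Hnrnpk, which binds C-rich stretches, had log2 fold changes of 0.53, 0.45, 0.48 and 0.52 at 180 ppm in crypt on days 8 and 91 and villus on days 8 and 91, with a lowest adjusted p of 0.268 by edgeR over the 24 comparisons. Srsf11 had 0.26, -0.03, 0.16 and 0.04 in the same order, and Hnrnpr 0.15, -0.07, -0.34 and -0.35.

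Over the rank of dose, 21 members of crypt rose and none fell on day 8 (3.69% of all probes rose and 5.78% fell), and 30 rose and 1 fell on day 91 (10.7% and 7.86%). In villus 18 rose and 1 fell on day 8 (5.86% and 8.19%), and 35 rose and 2 fell on day 91 (17% and 9.27%). Of probes with 10 CPM or more, 8.21% and 24.6% rose in crypt on days 8 and 91, and 12.8% and 34.1% in villus. Hnrnpab rose in all 4 sets, by 0.15 per dose step on the log2 scale in crypt on day 8 (SE 0.027, adjusted p = 1.11e-05), 0.092 on day 91 (SE 0.027, adjusted p = 0.00958), 0.14 in villus on day 8 (SE 0.028, adjusted p = 8.93e-05) and 0.088 on day 91 (SE 0.029, adjusted p = 0.0149). Srsf5 fell on day 91 in both compartments, Hnrnph3 in villus on day 91 and Srsf4 in villus on day 8. Without the 2 doubted libraries, 19 rose in crypt on day 8 (2.95% of all probes rose and 4.07% fell). In villus on day 8, 23 then rose and 1 fell (6.53% and 7.88%). Fitted alone, villus on day 8 had 11 that rose, against 5.14% of all probes. Without library 3 of every exposed group 11 rose and 1 fell, with no share of all probes given for that fit. The legacy fit did not pass Snrpb2, Snrpc, Snrpe and Sf3b3 in crypt on day 8, Sf3b3 and Snrpd1 in crypt on day 91, Srsf4 in villus on day 8, or Sf3b3 in villus on day 91.

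**Figure D3:**
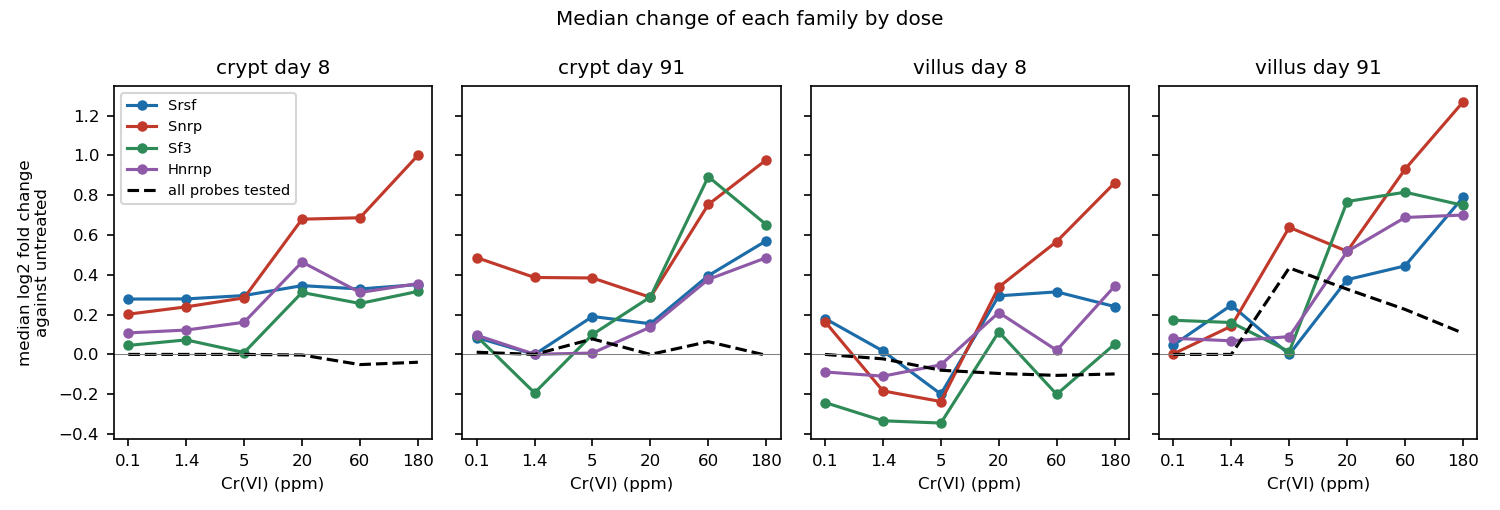
Median log2 fold change against untreated of the 4 families (coloured lines) and of all probes tested (dashed) by Cr(VI) dose (ppm), for each compartment and day. At 180 ppm the median over all 51 members was 0.39, 0.60, 0.31 and 0.79 in crypt on days 8 and 91 and villus on days 8 and 91, against -0.04, 0.00, -0.10 and 0.11 over all probes.

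The effect of 180 ppm was compared between compartments and between days in the same fit. No member differed between villus and crypt, on day 8 (0.00379% of all probes differed towards a larger effect in villus) or on day 91 (0.205%, and 0.019% towards crypt), and none differed between days in crypt (0.0986% towards a larger effect on day 91 and 0.0114% on day 8). At these group sizes a missing call does not show that the effects were alike. In villus the effect on 1 member, Sf3b1, differed between days, by 1.16 on the log2 scale (SE 0.34, adjusted p = 0.0957, against 0.842% of all probes in this direction and 0.129% in the other). The adjusted p was 0.14 with no filter, 0.238 with DESeq2's size factors, 0.112 after thinning, 0.186 without the 2 doubted libraries and 0.105 without mouse 90. DESeq2 called 2 members and the legacy fit 3, the latter against 2.68% of all probes in this direction and 0.527% in the other. The log2 fold change of Sf3b1 at 180 ppm was 0.04 (SE 0.24) on day 8 and 1.20 (SE 0.25) on day 91. Hnrnpd, which passed in both compartments on day 8, had log2 fold changes of 0.47 in crypt and -0.03 in villus on day 91 (adjusted p = 0.433 and 1), and its difference between days did not pass.

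Untreated crypt and villus were compared as a reference for these levels. On day 91, 19 members were higher in crypt and none in villus, against 6.98% of all probes higher in crypt and 3.89% in villus, and 15.1% higher in crypt among those with 10 CPM or more. Of the 19, Snrpb2 did not pass the legacy fit. Hnrnpa0 averaged 338 CPM in crypt and 148 CPM in villus (log2 difference 1.18, SE 0.23, adjusted p = 0.000135), Hnrnpu 420 and 185 CPM (1.18, SE 0.25, adjusted p = 0.000438) and Srsf3 242 and 102 CPM (1.24, SE 0.25, adjusted p = 0.000321), all by edgeR, with n = 5 and 4, without overlap and chosen after their values were seen. On day 8, 1 member was higher in crypt, Snrpd2, at 135 against 62.3 CPM (log2 difference 1.10, SE 0.31, adjusted p = 0.0963, against 0.216% of all probes), and none in villus (0.421%). Without the 2 libraries that went against their labels, 17 were higher in crypt, against 4.39% of all probes and 9.4% of those with 10 CPM or more in that fit, and with mouse as a block, 4 were, against 1.97% of all probes.

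**Figure D4:**
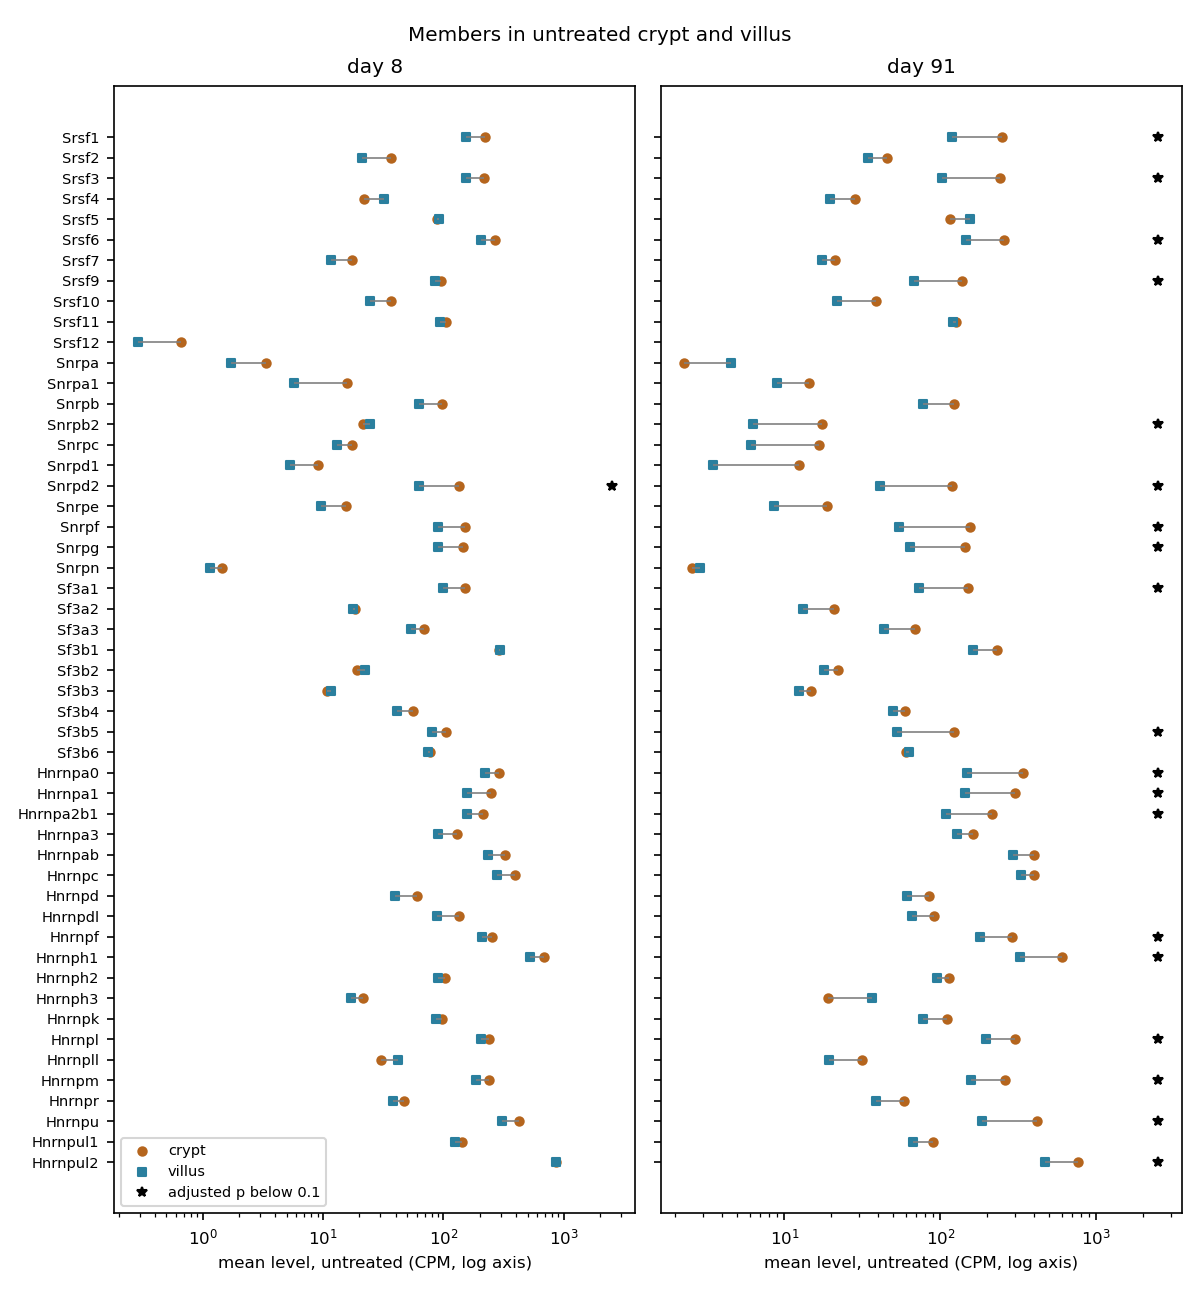
Mean level of each member (CPM, log axis) in untreated crypt (circles) and untreated villus (squares) on day 8 and day 91, with a star at the right where the adjusted p was below 0.1. Srsf12 was at 0 in all untreated libraries of day 91 and has no symbol there. On day 91, 19 members were higher in crypt, and on day 8, 1.

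Other cell types moved with dose. The summed level of 6 markers of dividing cells, of which Top2a is the most abundant, had a median of 541 CPM in untreated crypt and 763 CPM at 180 ppm on day 8, and of 484 and 780 CPM on day 91. In villus on day 91 it was 139 and 222 CPM. In crypt at 180 ppm, 0 of these 6 markers passed on day 8 and 2 rose on day 91. T lymphocyte markers, with Gzma the most abundant, fell at 180 ppm in 4 of 5 genes in crypt on each day (2 of 5 on day 8 without the 2 doubted libraries) and in 5 of 5 in villus on each day. Of 10 villus enterocyte markers, with Fabp2 the most abundant, 5 fell in crypt on day 8 (median log2 fold change -1.86), 3 in crypt on day 91 (-1.13), 4 in villus on day 8 (-0.37) and 4 in villus on day 91 (-0.83). Their summed level had a median of 28345 CPM in untreated crypt and 12183 CPM at 180 ppm on day 8, and of 37693 and 31215 CPM on day 91. In villus it was 70935 and 39823 CPM on day 8, and 67959 and 75984 CPM on day 91, where the sum did not fall. Sis, 1 of the 10, had a mean of 0.41 CPM. Of the 7 Paneth and stem cell markers, 2 fell in villus on day 8, 1 rose and 1 fell in villus on day 91, and none passed in crypt. Without the 2 doubted libraries none of the 7 fell in villus on day 8, and 2 markers of dividing cells rose there. Of 3 goblet cell markers, 2 fell in crypt on day 8 (1 without the 2 doubted libraries), and 1 rose on day 91 in each compartment. Of 8 markers of stroma and muscle, 2 fell in crypt on day 91, 2 in villus on day 8 (none without the 2 doubted libraries), and 2 rose and 2 fell in villus on day 91. At 60 ppm in crypt on day 91, 2 of the 3 goblet cell markers rose, 4 of the 8 stroma and muscle markers fell, 4 of the 5 T lymphocyte markers fell, and 1 of the 6 markers of dividing cells rose. There 1 villus enterocyte marker rose and 3 fell (median log2 fold change 0.39), and 1 Paneth and stem cell marker rose. At 60 ppm in villus on day 91, 3 markers of dividing cells, 2 of goblet cells and 1 of B and plasma cells rose, and 5 of 5 T lymphocyte markers fell. Paneth and stem cell markers went both ways there (2 rose and 1 fell), as did villus enterocyte (2 and 3) and stroma and muscle markers (1 and 3). The summed level of 5 B and plasma cell markers, with Jchain the most abundant, had a median of 671 CPM in untreated villus and 1861 CPM at 180 ppm on day 91, where 1 rose (median log2 fold change 1.59), and of 1265 and 567 CPM in crypt on day 8, where 1 fell although the median log2 fold change was 0.98. Muc6, the 1 marker of Brunner's glands with a probe, was called lower at 180 ppm in villus on both days, with a median of 0 CPM in all of these groups and at most 161 and 62.8 CPM in an untreated library of days 8 and 91. None of 10 pancreatic acinar markers passed at 180 ppm, although their sum varied widely between untreated libraries. It ranged from 11.2 to 34794 CPM in untreated crypt on day 8 and from 8.97 to 138951 CPM on day 91. In untreated villus it ranged from 21.1 to 32442 CPM on day 8 and from 31.4 to 45445 CPM on day 91. The part of these cell types in the members' changes was not tested, and in bulk tissue more cells of a type and more RNA per cell cannot be told apart.

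A further probe of the same gene, with a mean of 10 CPM or more, was available in 14 cases. Its log2 fold change had the sign of the first probe in 12, 12, 11 and 12 of the 14 at 180 ppm in crypt on days 8 and 91 and villus on days 8 and 91. The first probe was called in 6, 7, 3 and 10 of these cases in the same order, and the further probe as well in 1, 2, 1 and 4. Hnrnpf has 2 such further probes, so its first probe counts in 2 of the cases. At 60 ppm in crypt on day 91 the sign was shared in 10 of 14 cases. There the further probe was called in 3 of the 7 cases called on the first probe. No gene had probes called in opposite directions.

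Beyond the 4 families, 159 other splicing genes were tested. At 180 ppm, 7 were higher and none lower in crypt on day 8, 21 and 0 in crypt on day 91, 7 and 1 in villus on day 8, and 40 and 0 in villus on day 91. The higher share was 4.4%, 13.2%, 4.4% and 25.2%, against 2.28%, 9.14%, 5.58% and 20.2% of probes with 10 CPM or more. Ddx39, a helicase of mRNA export, was higher in all 4, with log2 fold changes of 1.24 (SE 0.29), 1.68 (SE 0.29), 1.37 (SE 0.31) and 2.38 (SE 0.35). Phf5a, an SF3b protein outside the symbol rule, had a log2 fold change of 1.12 (SE 0.25) in crypt and 1.82 (SE 0.29) in villus on day 91, and Snu13, of the tri-snRNP, of 1.61 (SE 0.38) and 2.03 (SE 0.51). Of the 15 snRNP assembly genes, 3 were higher in crypt and 2 in villus on day 91, against 9.14% and 20.2% of probes with 10 CPM or more. Smn1 was higher in both (1.38, SE 0.31, and 1.44, SE 0.37). At 60 ppm in crypt on day 91, 41 (25.8%, against 23.5% of probes with 10 CPM or more) were higher and 4 lower, among the latter Clk1, a kinase of SR proteins chosen after its values were seen (log2 fold change -1.10, SE 0.32).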

How the data were processed

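Raw counts per probe, deposited by the authors in 1 table of 30146 probes, were used for all 137 libraries. Per the labels, reads were prepared with bcl2fastq 2.17.1.14 and aligned with Bowtie; the genome build behind the probes is not given in the sources used here. Counts were scaled by TMM and fitted with edgeR 4.0.16 (quasi-likelihood, prior count 0.125, R 4.3.3) in 1 model of the 28 groups. Of the probes, 26365 passed filterByExpr, and p-values were Benjamini-Hochberg adjusted over these in each comparison. CPM use the TMM library sizes. Libraries of a group are separate mice, so p-values measure the spread between mice.

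Genes were named by rule: per family and 180 ppm comparison, the 2 called members with the smallest adjusted p, and the most abundant member of each family. Of each group of other splicing genes, up to 2 with the smallest adjusted p at 180 ppm could be named; those described outside these rules were chosen after their values were seen. Members, lists and tests were chosen with earlier results of these data known. The scripts were tested on simulated data. Crypt and villus libraries of 1 mouse are paired by the mouse: deviations from group means had a median correlation of 0.088 in 66 same-mouse pairs and -0.023 in 269 others. Alternatives were DESeq2 1.42.0, its size factors, no filter, the legacy fit, summed probes, thinning, separate fits, mouse as a block, and left-out libraries. Promoter windows come from RefSeq, GRCm38.p6.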

Additional observations from a re-analysis of the deposited data

Results flagged for a closer look

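Of 64 sets of values, each of 1 member in 1 group, tested for a single library far from the rest, 1 was marked, while chance marks about 1 in 20. Srsf6 in villus at 180 ppm on day 91 was at 407 CPM in mouse 485 and between 316 and 336 CPM in the other 4 libraries. All 5 lay above the untreated villi.

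The effect of 180 ppm on Sf3b1 in villus differed between day 91 and day 8 by 1.16 on the log2 scale (edgeR adjusted p = 0.0957), an interaction that passed the threshold narrowly.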

How the results depend on the processing

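Counts of called members at 60 ppm, 180 ppm and over the dose trend stayed within 1.5 times of the reported count under most alternatives. For the 32 member comparisons named above, refits gave 541 log2 fold changes. All kept their sign, and 39 of the 541 lost their call. The refits of a comparison used most of the same libraries, so a kept sign is a weak test. The exceptions among the counts follow, and their cause was not tested unless the alternative itself leaves out samples or probes. Counts without a share of all probes beside them do not show that members changed more than other probes. With DESeq2, 10 members were called in crypt (0.951% of all probes higher and 1.73% lower) and 12 in villus (3.46% and 4.45%) at 60 ppm on day 8. At 0.1 to 20 ppm it called 1 in crypt on each day and 19 in villus on day 8. It called 6 in untreated crypt against villus on day 8, and 2 for the 180 ppm effect between days in villus. With probes summed per gene, 8 were called at 60 ppm (1.21% of all summed probes higher and 1.43% lower) and 1 at lower doses in crypt on day 8. In villus on day 8, 13 were called at 180 ppm (4.13% and 3.84%) and 11 at 60 ppm (4.1% and 3.95%). In untreated crypt against villus on day 8, 2 were called. In separate fits of each compartment and day, 5 were called at 60 ppm in crypt on day 8 (1.4% of all probes higher and 1.6% lower). In crypt on day 91, 33 were called at 180 ppm (13.5% and 12%) and 11 at lower doses (at most 7.54% and 5.16%). In villus on day 8 there were 2 at 180 ppm (1.5% and 2.57%), 3 at 60 ppm (1.89% and 2.41%), 0 at lower doses and 11 over the trend (5.14% and 7.42%). Without mouse 48 villus and mouse 49 crypt, the counts in crypt on day 8 were 3 at 180 ppm (0.445% of all probes higher and 1.7% lower) and 1 at 60 ppm (0.308% and 0.575%). In villus on day 8 they were 15 at 180 ppm (3.59% and 3.78%) and 11 at 60 ppm (3.3% and 3.41%). The count was 17 in untreated crypt against villus on day 8, and 0 members differed in the 180 ppm effect between days in villus. That last count was also 0 with no filter, DESeq2's size factors or thinning, and 3 in the legacy fit. With DESeq2's size factors, 19 were called at 60 ppm in villus on day 91 (5.42% of all probes higher and 9.65% lower). In the legacy fit 2 were called at lower doses in villus on day 8 and 0 in untreated crypt against villus on day 8, the latter also with no filter. With mouse as a replicate block, 4 were called in untreated crypt against villus on day 8, and the block changed no other count by over 1.5 times.

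Leaving out 1 untreated library, or 1 library of every exposed group together, gave 3 (without untreated mouse 49) to 14 called members at 180 ppm in crypt on day 8, 12 to 20 in crypt on day 91, 3 (without untreated mouse 46) to 15 (without untreated mouse 48) in villus on day 8 and 22 to 31 in villus on day 91. At 60 ppm the ranges were 1 to 10, 20 to 24, 3 to 11 and 23 to 30, at lower doses 0 to 0, 0 to 1, 1 to 16 and 26 to 38, and over the trend 14 to 28, 25 to 31, 12 to 24 and 33 to 38, in the same order. They were 0 to 9 and 16 to 23 in untreated crypt against villus on days 8 and 91, 0 to 4 for the effect between days in villus, and 0 to 0 for the other interactions. No share of all probes is given beside these ranges, so they do not tell whether members moved more than other probes.

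The untreated villi of day 91 were the shallowest group, which limits the members under 30 CPM there.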
